A study of Mus musculus with 18 samples.

Results

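The comparison is between cells of the mouse pancreas that were being turned towards insulin-producing beta cells, in samples labelled day 30 and day 10. It uses 6 of 18 beadchip arrays, the 3 labelled day 30 and the 3 labelled day 10, which were chosen by their labels alone. Both groups came from Rag1-/- mice, which lack mature T and B cells. In both, an adenovirus was injected into the dorsal pancreas, at its splenic lobe, to induce beta cells, islets already present were taken out, the acinar fraction was dissociated with liberase and elastase, and cells carrying the red fluorescent protein Cherry were sorted by flow cytometry before Trizol extraction. Which genes the virus delivered is not stated in the labels. The other arrays, also 3 per group, hold acinar cells, endogenous beta cells and induced cells of day 60 and 7 months, and they enter here through the shared model and as reference levels. The labels do not say whether replicate arrays stand for separate mice, so the p-values reflect a spread among arrays, which may be technical. For each gene that spread is pooled over the 6 groups of all 18 arrays, and is not that of day 10 and day 30 alone. Levels set beside those of acinar and beta arrays are descriptions, with no test.

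Acinar cells fill the exocrine pancreas with digestive enzymes, and their identity rests on factors such as Ptf1a. Beta cells store insulin in dense granules, sense glucose through their own uptake and phosphorylation steps, and mature after birth, when they begin to make Ucn3 (urocortin 3), a peptide that is known as a marker of mature mouse beta cells. Neurog3 is the factor that starts endocrine development and is normally switched off again, whereas Pdx1 and Mafa stay on in mature beta cells.

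Of 18118 gene symbols on the arrays, 8942 were detected (p under 0.01 against negative controls) on 3 or more of the 18 arrays and were tested. Levels are log2 of background-corrected and quantile-normalized intensity, differences are day 30 minus day 10 on that scale with their standard error (SE), n = 3 arrays a group, and p-values are limma's, adjusted over all genes tested by the Benjamini-Hochberg method. A gene is called where this adjusted p is under 0.05. The SE and p-value rest on the pooled spread of all 6 groups, which can differ from that of day 10 and day 30. C1qb, with an SE of 0.41, had standard deviations (SD) of 0.03 at day 10 and 0.06 at day 30. Its SDs were 1.01 at day 60 and 0.91 at 7 months. Calls were made for 5462 genes, 61.1% of those tested, of which 2766 were higher at day 30 (30.9%) and 2696 lower (30.1%). The 2 groups did not overlap, that is, every array of one lay beyond every array of the other, for 75.4% of genes. A call or a lack of overlap is therefore common here, whereas a change past 2-fold was rarer, met by 846 called genes or 9.46%, with 460 higher (5.14%) and 386 lower (4.32%). The arrays of a group correlated at 0.996 (day 10) and at 0.998 (day 30). Between 6678 and 6954 genes were detected on a day 10 array and between 7644 and 7745 on a day 30 array, and the 50 brightest genes held 15.3% to 15.5% and 12.5% to 12.9% of the signal. The 6 arrays of day 60 and 7 months spread more widely, and each day 60 array matched the 7-month array of its own number (correlation of levels 0.9966 to 0.9972) as closely as replicates of day 10 matched each other, although the model counts all 6 as separate. Without these 6 arrays 6410 genes were called.

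The direction of a small change depends on the scaling. With each array scaled to its median, the middle gene of all genes tested moved by 0.20 and 71.8% of calls were higher at day 30, against 50.6% under quantile normalization. The authors' series matrix holds log10 of the deposited signals, and was put on the log2 scale with no background correction or normalization between arrays. In these values the middle gene moved by 0.26 and 84.2% of calls were higher. Changes below are relative to quantile-normalized arrays, in which the median change of all genes was 0.005. Counts of calls in the gene lists below stand against 30.9% of all genes called higher and 30.1% called lower.

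The fluorescent sort and the label were set against cell markers first. Both insulin genes, Ins1 and Ins2, were among the bright genes on all 6 arrays, and the glucose transporter gene Slc2a2 lay at 8.23 to 8.32 at day 10 and 8.49 to 8.55 at day 30, near its 8.50 in beta cells. Other beta-cell genes were far below that reference at both times, such as the transcription factor gene Nkx6-1 (8.01 and 7.99 against 11.02). The summed intensity of 16 genes linked to beta-cell maturity was 7145 to 7423 at day 10 and 12928 to 13048 at day 30, between the 3769 to 3991 of acinar and the 24969 to 25607 of beta arrays. The same arrays carried much digestive enzyme RNA. All 22 digestive enzyme genes tested were above the detection limit on every one of the 6 arrays, and their summed intensity was 416940 to 421590 at day 10 and 413020 to 417820 at day 30, against 451720 to 457080 on the acinar arrays and 10316 to 11572 on the beta arrays. These sums are carried by genes near the top of the scale, where a difference between groups can hardly show. Ctrc (chymotrypsin C), which lies lower, stood at 10.11 at day 10 and 9.68 at day 30 against 13.17 in acinar cells. RefSeq lists this mouse gene as a transcribed pseudogene. The libraries labelled induced beta cells thus held insulin and acinar transcripts together, and in bulk RNA fewer cells of a kind and less RNA per cell cannot be told apart.

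Ucn3, Iapp and Gast were the genes given as marks of the comparison. Iapp (islet amyloid polypeptide) is released from the granule with insulin, and Gast encodes gastrin, a stomach hormone that the fetal pancreas also makes. Windows around their starts are shown because these genes are among the 12 largest rises and falls named below. Each window runs from 250 bases before to 50 bases after the RefSeq start in build GRCm38.p6, read 5′ to 3′ along the gene. Capitals mark TAAT, the core read by homeodomain factors such as Pdx1, on either strand (ATTA on the other), and overlapping matches are counted. The windows lie at chr13:3945300-3945599 on the minus strand (Ucn3), chr6:142298175-142298474 on the plus strand (Iapp) and chr11:100334157-100334456 on the plus strand (Gast).
Ucn3: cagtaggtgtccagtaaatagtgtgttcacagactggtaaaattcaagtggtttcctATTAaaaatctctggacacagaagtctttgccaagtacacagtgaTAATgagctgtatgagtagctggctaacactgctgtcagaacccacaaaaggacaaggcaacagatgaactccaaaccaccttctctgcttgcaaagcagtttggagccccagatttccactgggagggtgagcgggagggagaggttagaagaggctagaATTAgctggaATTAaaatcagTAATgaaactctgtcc
Iapp: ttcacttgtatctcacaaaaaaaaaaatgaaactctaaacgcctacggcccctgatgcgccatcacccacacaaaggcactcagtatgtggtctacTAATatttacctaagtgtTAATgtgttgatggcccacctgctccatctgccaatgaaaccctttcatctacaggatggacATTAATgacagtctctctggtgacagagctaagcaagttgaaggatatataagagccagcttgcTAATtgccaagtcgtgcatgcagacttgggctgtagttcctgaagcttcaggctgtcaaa
Gast: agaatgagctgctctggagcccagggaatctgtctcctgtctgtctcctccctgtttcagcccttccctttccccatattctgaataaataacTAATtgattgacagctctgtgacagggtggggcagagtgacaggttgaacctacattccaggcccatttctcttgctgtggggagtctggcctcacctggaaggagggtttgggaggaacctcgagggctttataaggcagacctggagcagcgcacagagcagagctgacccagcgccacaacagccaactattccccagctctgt
The Ucn3 and Iapp windows hold 5 matches each and the Gast window 1. The last matches of the Ucn3 window lie after the start, within its final 50 bases. Among all 32851 promoter windows of RefSeq's set, 58.0% hold at least 1 match and 6.86% at least 5, and a match describes letters, not a bound site.

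The deposited signal of Ucn3 was 108, 114 and 123 on the day 10 arrays and 1343, 1207 and 1282 on the day 30 arrays. Its normalized level rose from 6.21, 6.38 and 6.56 to 9.95, 9.77 and 9.86. The arrays fell into 2 narrow groups with no overlap, and the day 30 level lay just under the 10.12 ± 0.05 (SD, n = 3) of endogenous beta cells, while acinar cells stood at 4.85. The difference was 3.48 ± 0.14 (11.2-fold, adjusted p = 1.1e-10), a rise exceeded only by that of Dcn among the 12 largest.

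Iapp had deposited signals of 157, 152 and 131 at day 10 and of 986, 1519 and 1530 at day 30. In normalized terms it went from 7.09, 7.05 and 6.73 to 9.51, 10.13 and 10.13, a difference of 2.97 ± 0.20 (7.82-fold, adjusted p = 1.9e-08). The first day 30 array was the lowest of its group and still above every day 10 array. The day 10 mean of 6.95 lay beside 7.16 ± 0.29 (SD, n = 3) in acinar cells, and the day 30 mean of 9.92 below the 12.04 of beta cells.

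Gast moved the other way. Its deposited signals were 458, 436 and 442 at day 10 and 105, 104 and 109 at day 30, and its levels 8.87, 8.83 and 8.84 against 5.64, 5.65 and 5.80. The change of -3.15 ± 0.21 (8.87-fold lower, adjusted p = 1.4e-08) was the largest of the 12 named falls, and the day 30 arrays still lay above acinar cells (4.50) and endogenous beta cells (5.05). The plot of endocrine genes by array shows these 3 genes beside 5 others in all 6 groups.

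**Figure D1:**
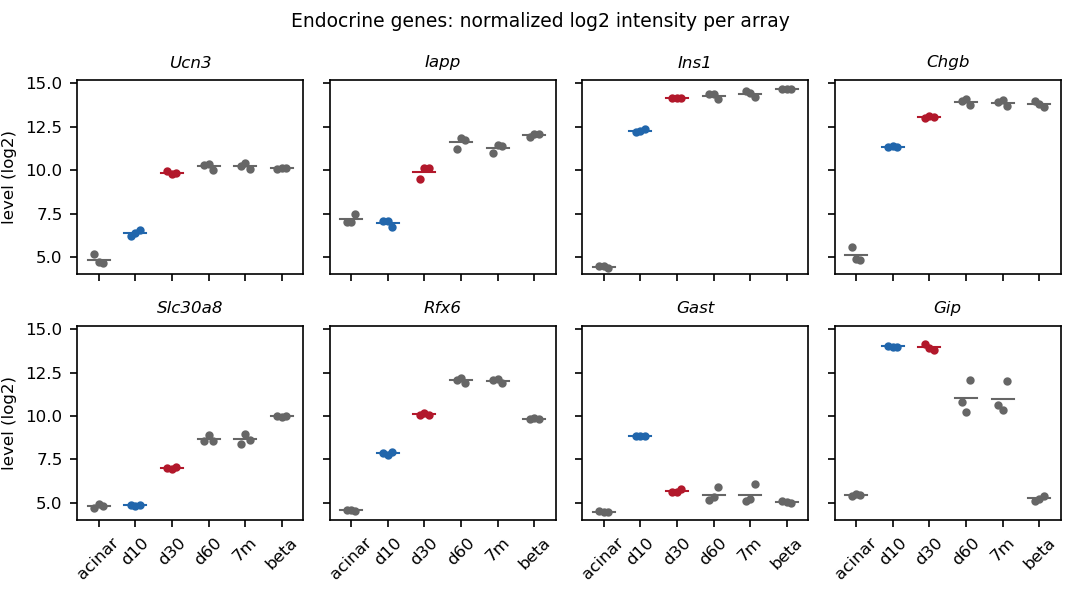
Normalized log2 intensity of 8 endocrine genes on each of the 18 arrays (points) with the mean of each group of 3 (bars), for acinar cells, induced cells of day 10 (d10, blue), day 30 (d30, red), day 60 (d60) and 7 months (7m), and endogenous beta cells. Ucn3, Iapp, Ins1, Chgb, Slc30a8 and Rfx6 were higher on every day 30 array than on every day 10 array, Gast was lower, and Gip overlapped.

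Granule and hormone-processing genes were mostly higher at day 30. Of 22 tested, 15 were higher, 1 was lower and 6 were not called, with a median change of 0.65 against 0.005 over all genes (0.54 with genes below the detection limit placed at their bound), and 10 of the 15 were past 2-fold. Ins1 rose from 12.20, 12.28 and 12.37 to 14.16, 14.17 and 14.14, which is 1.88 ± 0.09 or 3.67-fold (adjusted p = 1e-09). Its day 30 level approached the 14.70 of beta cells. Ins2 lay at 14.27, 14.32 and 14.25 and then at 14.72, 14.70 and 14.72. It differed by 0.44 ± 0.18 and missed the threshold (limma's adjusted p = 0.052), although the groups did not overlap. Its SD was 0.04 at day 10 and 0.02 at day 30. On the acinar arrays, where Ins2 was not above the detection limit, the SD was 0.56, and that spread enters the SE. Both insulin genes share much sequence and lie near the top of the scale, where the brightest value of every array is set to 14.87, and the files do not mark saturated beads.

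Scg3 (secretogranin III), which gathers hormones into granules, rose from 8.84, 8.65 and 8.77 to 10.90, 11.01 and 10.90, a difference of 2.18 ± 0.19 (adjusted p = 1.8e-07), and stayed well below its 14.22 in beta cells. Resp18, a granule protein gene, rose by 1.94 ± 0.14 to 13.50 and so reached the 13.44 of beta cells. Slc30a8, the zinc transporter that loads insulin granules, was not above the detection limit on any day 10 array (mean level 4.86) and was above it on all 3 at day 30 (7.01), at least 2.23-fold higher (adjusted p = 4.7e-09), with 9.98 in beta cells. The prohormone convertase gene Pcsk2, its chaperone Scg5 and the convertase inhibitor Pcsk1n were also called higher, by 1.09, 1.09 and 1.32. Chga (chromogranin A), high at both times, was not called (13.33 to 13.40 and 13.63 to 13.66, limma's adjusted p = 0.06). Its SD was 0.04 at day 10 and 0.02 at day 30, and 0.31 on the acinar arrays, where it was not above the limit.

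Among 16 tested genes linked to beta-cell maturity, 11 were higher and 1 lower (median 0.55). G6pc2, an islet glucose-6-phosphatase subunit, lay at 9.90, 9.92 and 9.97 and then at 11.67, 11.76 and 11.70, a rise of 1.78 ± 0.10 (adjusted p = 2.6e-09). Spc25, a kinetochore gene that marks beta cells in this list, was above the limit only at day 30 and was at least 1.94-fold higher. Sytl4 (granuphilin), which docks insulin granules, rose by 0.98 ± 0.11.

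Genes of glucose sensing, the ATP-sensitive potassium channel and exocytosis were divided. Of 24 tested, 12 were higher (50%) and 5 lower (20.8%), against 30.9% and 30.1% of all genes, with a median of 0.28 (0.15 at bounds). Rab3a, a GTPase of secretory vesicles, rose by 1.28 ± 0.12 (7.99 to 8.27 at day 10 and 9.28 to 9.42 at day 30, adjusted p = 3.2e-07). The fusion gene Stx1a and the channel subunit gene Abcc8 were called lower, with changes of -0.91 and -0.35. Slc2a2 was not called (0.25 ± 0.13, adjusted p = 0.12).

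Islet transcription factors split by member. Of 15 tested, 9 were higher, 2 lower and 4 not called (median 0.43). Rfx6, which directs endocrine differentiation and keeps beta cells functional, went from 7.89, 7.76 and 7.90 to 10.09, 10.16 and 10.09. That difference, 2.26 ± 0.07 (4.79-fold, adjusted p = 3.3e-11), took it to just above its 9.85 in beta cells. Neurod1, a direct target of Neurog3 in development, rose by 1.53 ± 0.09 to 7.81, also above beta cells (7.41). Pax4, a factor of beta-cell development, was above the detection limit on no acinar or beta array (4.64 and 4.52). It rose from 6.54, 6.39 and 6.59 to 8.33, 8.34 and 8.39 (1.85 ± 0.25, adjusted p = 1.4e-05).

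Neurog3 fell, from 7.88, 7.92 and 7.87 to 6.54, 6.34 and 6.50, a change of -1.43 ± 0.39 (2.69-fold lower, adjusted p = 0.0049). All 3 day 30 arrays still lay above beta cells (5.80) and acinar cells (4.60). Mafa, an activator of the insulin gene, was at 8.53, 8.53 and 8.39 and then 8.34, 8.49 and 8.48, with overlapping groups and a difference of -0.05 ± 0.13 (adjusted p = 0.76). In the series matrix values it was called higher (0.44, limma's adjusted p = 0.0041). Mafa was above the detection limit on no array of endogenous beta cells (5.31), which makes beta cells no reference for it here. Pdx1 changed by -0.26 ± 0.10 (adjusted p = 0.033), from 7.05 to 7.31 at day 10 and 6.87 to 7.03 at day 30, below acinar cells (7.75) and beta cells (9.93), and its direction turned under median scaling (0.12) and in the series matrix values (0.22). The Pdx1 call was also lost without any 1 of 4 single arrays. Nkx6-1 overlapped between the groups (-0.02 ± 0.16) and was likewise called higher in the series matrix values (0.46, limma's adjusted p = 0.0012).

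**Figure D2:**
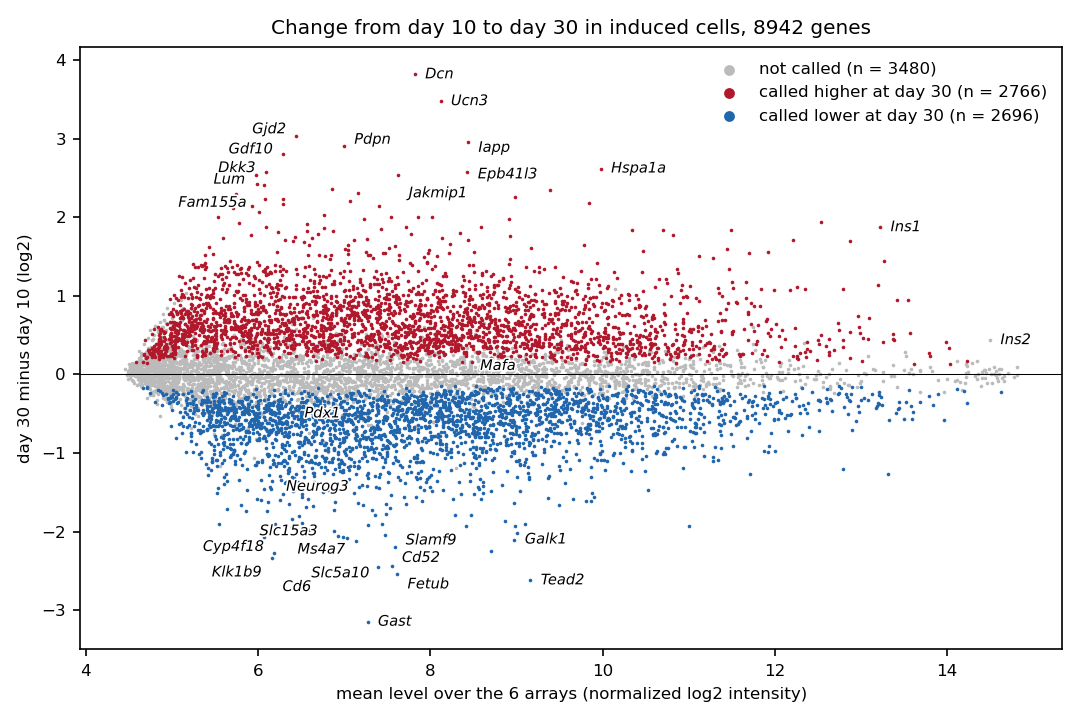
Day 30 minus day 10 (log2, vertical axis) against the mean level over the 6 arrays (normalized log2 intensity, horizontal axis) for all genes tested, coloured by call at an adjusted p under 0.05, with the markers, Pdx1, Neurog3, Mafa, both insulin genes and the 12 largest changes each way labelled. Dcn, Ucn3, Gjd2 and Iapp top the rises, and Gast, Tead2, Fetub and Cd6 the falls.

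Hormone genes of the gut and of other islet cells showed no common direction, with 6 of 16 higher (37.5%), 5 lower (31.25%) and a median of -0.03. These shares are near the 30.9% and 30.1% of all genes. Cartpt, a peptide made by developing islet cells, rose from 6.18, 6.47 and 6.35 to 8.48, 8.46 and 8.48 (2.14 ± 0.32, adjusted p = 3.3e-05). Gcg (glucagon) rose by 1.58 ± 0.36 to 11.26 (limma's adjusted p = 0.0015), below its level on the acinar arrays (12.10) and on the beta arrays (14.58). The beta arrays used as a reference thus also held much glucagon RNA. Gip, the incretin of intestinal K cells, was among the brightest transcripts at both times, at 14.05, 14.01 and 14.01 and then 14.14, 13.93 and 13.83, against 5.44 in acinar and 5.25 in beta cells, and its groups overlapped (-0.05 ± 0.40). Sst (somatostatin) was likewise not called (0.08 ± 0.25). Cck, Pyy, Gal and Npy were called lower, with changes of -0.75 to -0.43. Of 10 markers of non-beta islet cells tested, some of which are in the hormone list too, 6 were higher and 1 lower (median 0.48). Their summed intensity was 32154 to 33471 at day 10 and 41267 to 43544 at day 30, with 8 to 10 and then all 10 above the limit. It was 7381 to 7635 on the acinar arrays and 71331 to 72831 on the beta arrays. The part of other islet cells in the rise of shared granule genes was not tested.

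Of 19 neuronal genes that islet cells also use, 8 were higher and 1 lower (median 0.21), and 13 were higher in the series matrix values. Gad1, which makes GABA and is known from beta cells, rose by 1.98 ± 0.09 (7.89 to 7.97, then 9.85 to 9.99, adjusted p = 3.4e-10) and passed its beta-cell level of 9.36. Gjd2 (connexin 36), the gap junction that couples beta cells, was above the limit on no day 10 array (4.93) and on all 3 at day 30 (7.97), at least 4.35-fold higher (adjusted p = 3.1e-08), with 11.10 in beta cells. Another 3 genes among the 12 largest rises were also higher in beta than in acinar cells: Epb41l3, a membrane skeleton gene (2.57 ± 0.18), Jakmip1 (2.55 ± 0.31), and Fam155a, which was at least 2.56-fold higher.

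Acinar genes behaved unevenly. No digestive enzyme gene was called higher and 3 of 22 were called lower, with a median of -0.00. Pla2g1b (pancreatic phospholipase A2) fell from 14.17, 14.29 and 14.31 to 13.81, 13.59 and 13.63 (-0.58 ± 0.09, adjusted p = 3.8e-05). Ctrc had a change of -0.42 and lost its call under several alternatives. Under median scaling 9 of the 22 were called lower and the median was -0.28. Most of this list lies near the top of the scale, where the normalization fixes the highest values. Among 19 genes of secretion and zymogen granules 9 were lower and 2 higher (median -0.20). Erp27, an endoplasmic reticulum protein of acinar cells, fell from 13.36, 13.40 and 13.39 to 12.17, 12.13 and 12.27 (-1.20 ± 0.12). Slc38a5, a glutamine transporter, fell by 1.27 ± 0.24, and the water channel gene Aqp8 fell by 1.48 ± 0.30.

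Of 7 acinar transcription factors tested 5 were lower and 1 higher (median -0.44, or 0 at bounds). Among the 5, Creb3l1 was above the detection limit on no day 10 array and 1 day 30 array, and Nr5a2 on none of the 6, so their falls lie below what the arrays detect. Ptf1a, the factor that drives acinar enzyme genes, fell from 10.46, 10.49 and 10.43 to 9.26, 9.26 and 9.32 (-1.18 ± 0.20, 2.27-fold lower, adjusted p = 0.00011). It stayed far above the 4.59 of beta cells, where it was below the detection limit. Gata6 was the member that rose (0.93 ± 0.12). Under median scaling 3 of the 7 were lower, and in the series matrix values 2. Tead2, a DNA-binding partner of the Hippo pathway's YAP that is high in acinar cells (12.31) and below the limit in beta cells (4.77), fell from 10.47, 10.48 and 10.47 to 7.99, 7.84 and 7.73. At -2.62 ± 0.16 (6.16-fold lower, adjusted p = 6.5e-09) it was second only to Gast among the 12 named falls. Galk1 (galactokinase), with 10.31 in acinar and 4.64 in beta cells, fell by 2.10 ± 0.17. Of the 12 Hippo genes tested, Tead2 among them, 5 were higher (41.7%), including the kinases Stk3 and Stk4, and 2 lower (16.7%). Over all genes 30.9% were higher and 30.1% lower, and the list median was 0.31, or 0 at bounds. Stk3 had deposited signals of 67, 67 and 75 at day 10, below the detection limit, and of 101, 104 and 100 at day 30.

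Heat shock genes rose. Of 19 tested 15 were higher and 1 lower, with a median of 0.47. Hspa1a, the inducible HSP70, went from 8.74, 8.61 and 8.65 to 11.21, 11.32 and 11.34 (2.62 ± 0.10, 6.16-fold, adjusted p = 1.1e-10), beyond both acinar (5.46) and beta cells (8.93). A near-identical copy, Hspa1b, may share its probe. Hsph1 (HSP110), a co-chaperone of HSP70, rose by 1.84 ± 0.18 (9.40, 9.39 and 9.48, then 11.23, 11.30 and 11.25), and Dnajb1 (HSP40) by 1.56 ± 0.08. The heat shock factor HSF1 binds inverted repeats of GAA, and the windows of both genes that changed most are shown with GAANNTTC in capitals. This word reads the same on both strands. They lie at chr17:34972107-34972406 (Hspa1a) and chr5:149636287-149636586 (Hsph1, the more upstream of 2 windows), both on the minus strand.
Hspa1a: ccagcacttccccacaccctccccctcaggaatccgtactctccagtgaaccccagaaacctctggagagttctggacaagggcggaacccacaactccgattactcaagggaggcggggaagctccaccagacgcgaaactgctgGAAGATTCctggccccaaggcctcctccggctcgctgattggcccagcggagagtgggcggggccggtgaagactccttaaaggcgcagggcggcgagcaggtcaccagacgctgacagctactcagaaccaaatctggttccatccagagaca
Hsph1: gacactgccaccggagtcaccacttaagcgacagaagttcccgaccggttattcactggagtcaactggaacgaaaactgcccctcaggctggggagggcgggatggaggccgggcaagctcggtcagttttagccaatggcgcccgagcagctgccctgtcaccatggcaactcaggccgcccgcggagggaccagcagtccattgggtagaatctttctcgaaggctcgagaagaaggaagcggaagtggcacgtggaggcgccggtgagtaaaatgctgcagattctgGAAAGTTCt
The match in the Hsph1 window lies after the start, within its final 50 bases. GAANNTTC occurs in 7.86% of all 32851 windows. Of the 15 heat shock genes tested that have a window, 10 hold it in at least 1, as do 2442 of all 27025 genes with a window (9.04%), and among the 12 called higher it was 8. No factor binding was measured.

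Immediate early genes, which answer within minutes to stimulation, were higher in 16 of 23 and lower in 4 (median 0.61). Fos rose from 10.91, 10.93 and 10.92 to 12.45, 12.47 and 12.49 (1.55 ± 0.06, adjusted p = 1.5e-10). Egr2 rose by 1.88 ± 0.12, Egr4 by 1.61 ± 0.22 and Fosb by 1.51 ± 0.09, each with no overlap. Dusp2 and Jund were called lower, with changes of -1.02 and -0.68.

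Unfolded protein response genes, which relieve the secretory pathway, were higher in 14 of 24 and lower in 3 (median 0.43). Ddit3 (CHOP) rose by 1.42 ± 0.29 (9.15 to 9.28, then 10.62 to 10.67, adjusted p = 0.00065) and Herpud1, of the degradation arm, by 1.14 ± 0.11. Hspa5 (BiP), the main chaperone of the endoplasmic reticulum, rose by 1.15 ± 0.21. Its deposited signals were dim, at 143, 124 and 147 on the day 10 arrays and 290, 395 and 376 on the day 30 arrays. Xbp1, at 13.10 to 13.18 and 13.16 to 13.22, was not called. Growth arrest and p53 target genes were mixed, 6 of 22 higher (27.3%) and 9 lower (40.9%), against 30.9% and 30.1% of all genes. Phlda3 fell by 1.59 ± 0.16 and the arrest gene Gadd45a rose by 1.03 ± 0.12. The balance of the list turned in the series matrix values, to 11 higher and 4 lower, with a median of 0.20 in place of -0.15.

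**Figure D3:**
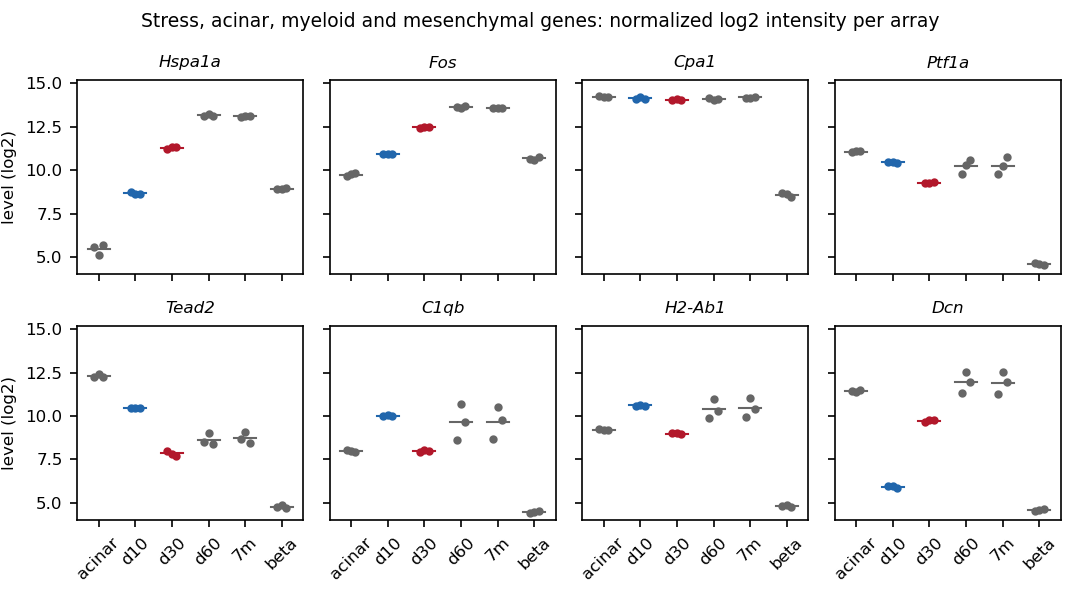
Normalized log2 intensity per array (points) and group mean (bars) of stress genes (Hspa1a, Fos), acinar genes (Cpa1, Ptf1a), Tead2, a macrophage gene (C1qb), an MHC class II gene (H2-Ab1) and a mesenchymal gene (Dcn), with groups ordered as acinar, day 10, day 30, day 60, 7 months and beta. From day 10 to day 30 Hspa1a, Fos and Dcn rose, Ptf1a, Tead2, C1qb and H2-Ab1 fell, and Cpa1 was level, and the day 60 and 7-month arrays of myeloid and mesenchymal genes spread widely.

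Macrophage and antigen presentation genes were lower at day 30. Of 23 macrophage and myeloid markers tested none was called higher and 17 were lower, 13 of them past 2-fold, with a median of -1.26. The median was -0.37 where limma itself inferred the controls, and 12 were called lower in the series matrix values. C1qb, a complement subunit made by macrophages, lay at 9.98, 10.04 and 10.01 and then 7.95, 8.07 and 7.96, a fall of 2.02 ± 0.41 (adjusted p = 0.00055). Ms4a7 fell by 2.12 ± 0.14, and Tyrobp, a signalling adaptor of myeloid cells, was above the limit on all day 10 and on no day 30 array, at least 3.38-fold lower. Their summed intensity was 9781 to 9870 at day 10 and 3690 to 3901 at day 30, close to the acinar arrays (4001 to 4125), with 18 to 20 and 16 to 18 of the 23 above the limit per array. Cd52, a leukocyte surface gene, fell by 2.44 ± 0.28 and Slamf9 by 2.19 ± 0.22, which puts both among the 12 largest falls beside Ms4a7. Cd6, a receptor gene known from T cells, fell by 2.52 ± 0.10 (7.96 to 8.04, then 5.40 to 5.55) in mice without mature T cells. The T-cell gene Cd3e, the 1 lymphocyte marker tested, fell by 0.92 ± 0.08. Of 3 neutrophil markers none was called by limma (median -0.11, lowest unadjusted p = 0.59), Lcn2 and Mmp9 among them, and 1 was called lower without the day 60 and 7-month arrays.

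Antigen presentation moved with these markers. All 8 MHC class II genes tested were lower, 7 past 2-fold, with a median of -1.20. H2-Ab1, a class II chain, went from 10.60, 10.64 and 10.60 to 9.02, 9.01 and 8.96 (-1.62 ± 0.24, adjusted p = 3.5e-05). Of 15 class I genes 13 were lower (median -0.60), a count that was 8 under median scaling and 7 in the series matrix values. H2-Q8 fell by 2.00 ± 0.32, H2-K1 by 1.30 ± 0.22 and the peptide transporter gene Tap1 was at least 1.91-fold lower. H2-Q genes resemble each other closely, so their probes may not separate them. Among 32 interferon-stimulated genes 14 were lower (43.75%, against 30.1% of all genes) and 5 higher (15.6%, against 30.9%). Their median was -0.29, or -0.21 at bounds, and 7 were lower under median scaling and 5 in the series matrix values. Bst2 fell by 1.95 ± 0.28, and Irf1 rose by 1.10 ± 0.14. The part of the fall in macrophage markers in these gene groups was not tested.

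Mesenchymal and stellate markers were higher. Of 22 tested 12 were higher and 1 lower (median 0.81, or 0.46 at bounds). Dcn (decorin), a matrix proteoglycan of fibroblasts and stellate cells, made the largest rise of all named genes, from 5.94, 5.95 and 5.83 to 9.65, 9.76 and 9.78 (3.82 ± 0.26, 14.1-fold, adjusted p = 1.9e-08), with 2 of the 3 day 10 arrays above the limit. Lum (lumican) was above the limit only at day 30, at least 2.63-fold higher, and Igfbp5 rose by 2.21 ± 0.22. The summed intensity of the list was 2916 to 3053 at day 10 and 5598 to 5728 at day 30, against 11380 to 11431 on acinar arrays and 1847 to 1969 on beta arrays, with 9 to 12 and 19 to 20 of the 22 above the limit. The count of 12 was 3 when limma itself inferred the controls from every detection p-value and 19 without the day 60 and 7-month arrays, and the former ended the calls of Lum, Col5a1 and Gdf10. Another 3 of the 12 largest rises, Pdpn (podoplanin), Gdf10 and Dkk3, were at least 6.08-fold, 3.61-fold and 2.90-fold higher, and Pdpn and Gdf10 were at 8.52 and 7.94 in acinar cells and below the limit in beta cells. The part of this marker group in any other rise was not tested.

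Of 14 endothelial markers 3 were called higher (21.4%, under the 30.9% of all genes) and none lower, with a median of 0.19, or 0 at bounds. Among 19 duct markers 7 were higher (36.8%) and 6 lower (31.6%), near the 30.9% and 30.1% of all genes. Krt19, a duct keratin, fell by 1.30 ± 0.26 and Ambp rose by 1.70 ± 0.11. Red blood cell markers were low at both times, with a summed intensity of 261 to 287 and 319 to 355, against 14558 to 14682 on acinar arrays.

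Genes of growth and core metabolism were more often lower than higher, a balance that turned in the series matrix values for cell cycle genes (7 higher, 3 lower). Of 21 cell cycle genes 12 were lower and 3 higher (median -0.30, or -0.02 at bounds). The centromere histone gene Cenpa fell by 1.25 ± 0.11, and the cyclin gene Ccnd2, used by beta cells, rose by 1.08 ± 0.07. Of 61 ribosomal protein genes 36 were lower and none higher (median -0.25), and of 64 respiratory chain and ATP synthase genes 35 were lower and 10 higher (median -0.24). The shifts of the ribosomal and respiratory lists are about the size of the move that another scaling gives to all genes, and in the series matrix values 18 respiratory genes were lower. In amino acid and creatine metabolism 13 of 22 were lower and 4 higher (median -0.50), with 7 lower in the series matrix values. The serine synthesis gene Phgdh went from 9.28 to 9.33 at day 10 to 7.89 to 7.96 at day 30 (-1.37 ± 0.20, adjusted p = 3.1e-05). Among 24 genes that beta cells normally keep silent 7 were lower and 4 higher, and these 29.2% lower are close to the 30.1% of all genes. In the series matrix values 8 were higher and 4 lower, with a median of 0.23 in place of -0.07. The list includes Ldha (lactate dehydrogenase A), which fell from 10.56, 10.56 and 10.57 to 9.50, 9.48 and 9.45 (-1.09 ± 0.28, adjusted p = 0.0031), with 8.06 in beta cells.

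**Figure D4:**
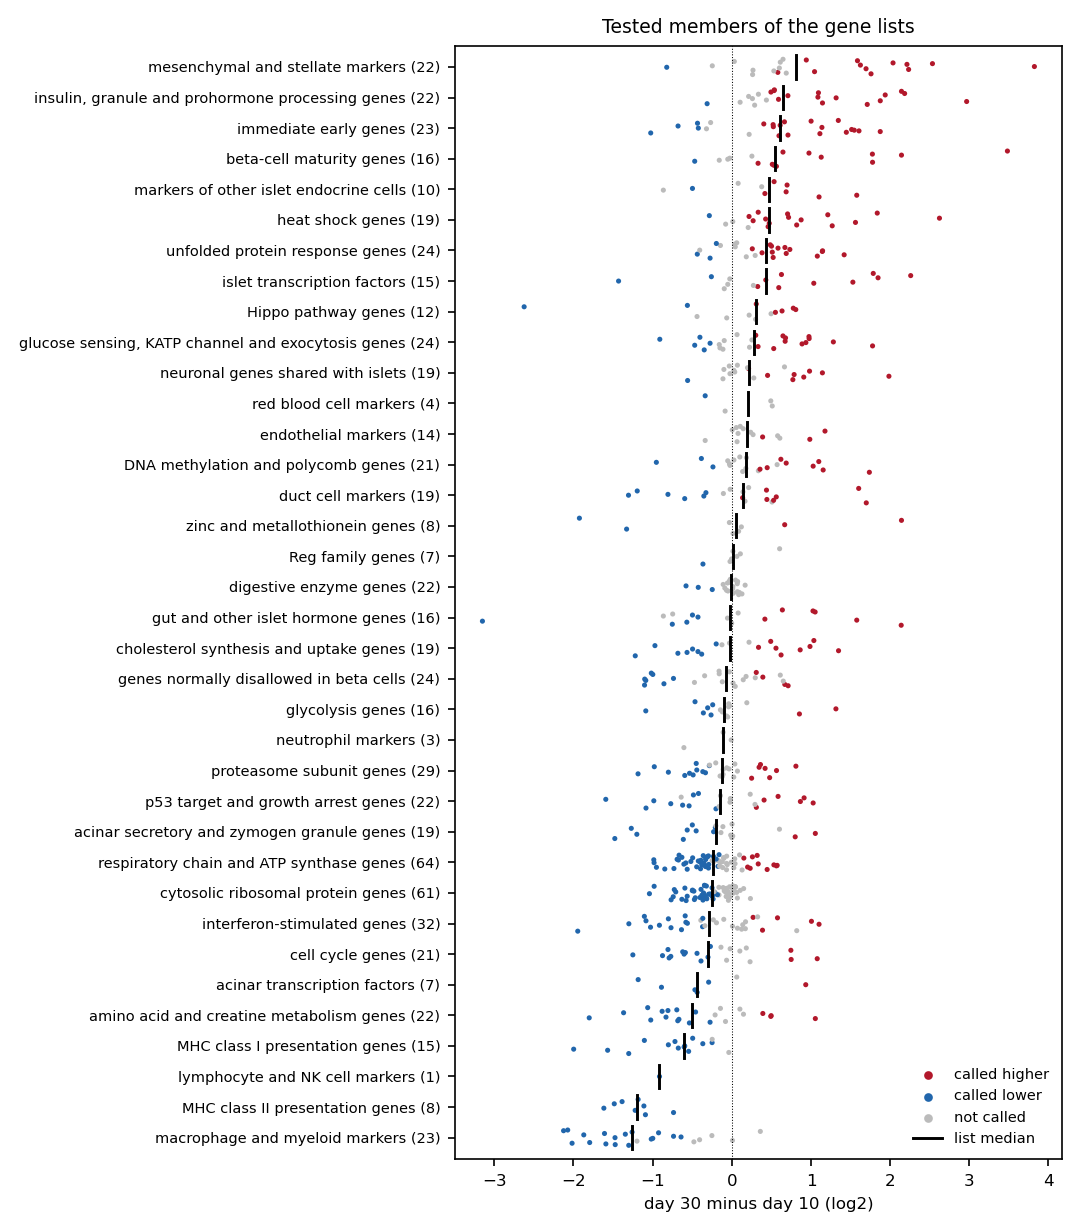
Day 30 minus day 10 (log2, horizontal axis) of every tested member of the 36 gene lists (points, red called higher, blue called lower, grey not called), with the list median as a black bar and the number of tested members in brackets, and the dotted line at the median of all genes. Lists are ordered by median, from macrophage and MHC class II genes at the bottom to granule and mesenchymal genes at the top.

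Whether changes ran the way of the difference between endogenous beta and acinar cells was counted on arrays that the comparison does not use. Beta and acinar cells differed in 7093 genes (79.3%). Of the 4417 genes called in both comparisons 2554 (57.8%) had the same sign, close to the 56.3% found over all 7093 genes whether or not they were called between day 30 and day 10. Changes past 2-fold matched more often, 494 of 687 (71.9%). Among falls past 2-fold 250 of 308 (81.2%) were lower in beta cells, and among rises past 2-fold 244 of 379 (64.4%) were higher in them. Under median scaling the shares for falls and rises became 72.8% and 87.5%. The share over all genes that differed between beta and acinar cells was then 65.6%. Which of the shares for falls and rises is larger thus depends on the scaling. The rises against that direction include Dcn, Lum, Pdpn and Gdf10, all higher on the acinar than on the beta arrays. The acinar arrays also held transcripts of other cells. Mesenchymal and stellate markers summed to 11380 to 11431 there against 1847 to 1969 on the beta arrays. For red blood cell markers the sums were 14558 to 14682 against 99 to 106. The direction counted here is thus that between the arrays, not between pure cell types.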

How the data were processed

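The 18 arrays are Illumina MouseRef-8 v2.0 beadchips, per the labels' protocols. Per the file headers, the authors deposited for each gene symbol and array an intensity, which shows no background subtraction, and the p-value of its detection. For most symbols this deposited p-value was a multiple of 1 over 798. The authors' series matrix held log10 values, equal to log10 of the same signals. The processing software is not given in the sources used here.

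With limma 3.58.1 in R 4.3.3, signals were corrected by normexp, with the controls' mean and SD inferred from the 13699 symbols on that grid, an offset of 16, quantile normalization and log2. The other 4419 symbols appear to combine several probes. All 18 arrays entered 1 model of 6 group means (lmFit, eBayes, prior degrees of freedom 2.95), tested on simulated data first. The detection limit of an array is its lowest signal with a detection p-value under 0.01 among grid symbols, and a gene above it on no array of the dimmer group gets a bound, "at least N-fold". That limit was set after values had been seen. The offset understates changes of dim genes. Precision is limited by there being 3 arrays a group.

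The comparison, its 36 gene lists (664 of 942 genes tested) and the rule for named genes were chosen with earlier results of these data known. Named are Ucn3, Iapp, Gast, Pdx1, Neurog3, Mafa, Ins1, Ins2, the 12 largest called rises and falls detected on all arrays of the brighter group, without overlap and of the same direction under median scaling, and per list up to 4 called members and 2 bright members not called. List members given only with a call and a change were picked afterwards. Symbols were updated for 4905 of 18118 through RefSeq (GRCm38.p6), which also gave the promoter windows. Figures were drawn with matplotlib 3.10.9. Alternatives were other background corrections, offsets, scalings, filters, models and left-out arrays. A few genes are not reported here by name.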

Additional observations from a re-analysis of the deposited data

How the results depend on the processing

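Leaving out 1 array of either group gave 4951 to 5053 calls, against 5462. The count was 6446 with the 6 arrays of day 10 and day 30 alone and 5739 of 9199 genes with a filter on the signal over the detection limit, an alternative added after seeing the data, as was leaving out the late arrays. Changes past 2-fold numbered 350 where limma itself inferred the controls, 380 with no background correction, 355 with normexp on the signals alone, 410 with an offset of 50 and 1334 under median scaling, against 846. Genes called lower numbered 1419 under median scaling and 877 in the series matrix values, where 4684 were higher and 4311 ran the way of beta against acinar cells. Directions turned under median scaling for H2-M3 (0.34) and Pdx1 (0.12), and in the series matrix values for H2-M3 (0.45), Pdx1 (0.22), Mafa (0.44), Nkx6-1 (0.46), Ccng1 (0.26), Gadd45b (0.39), Krt23 (0.35), Pmvk (0.36) and Slc4a1 (0.078), where all but Pdx1 and Slc4a1 were then called higher. The cause was not tested. Pdx1 also lost its call without day 10 array 1 (-0.20) or 2 (-0.23), without day 30 array 1 (-0.26) or 3 (-0.22), and the call of Ctrc was lost when any 1 of the 6 arrays was left out. Of the comparisons of a named gene with its value under an alternative, 4241 kept direction and side of the threshold, 142 gained a call, 44 lost it and 11 turned. With the replicate number as a block 5563 genes were called, and 6313 with the 6 arrays alone. Equal numbers did not deviate together (correlations -0.016 to 0.0039), so they do not pair these arrays. A dim gene has only a bound, bright genes sit at the top of the scale, and 9176 genes were too dim to test.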

Other observations

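Cholesterol synthesis and uptake genes moved both ways, 8 of 19 higher and 8 lower, but 9 higher and 2 lower in the series matrix values. Hmgcs1, an early enzyme of the pathway, rose by 1.35 ± 0.13 (10.24, 10.17 and 10.17 at day 10, 11.54 on every day 30 array), while Acat2 fell by 1.22 ± 0.13. Of 21 DNA methylation and polycomb genes 8 were higher (38.1%) and 3 lower (14.3%), against 30.9% and 30.1% of all genes (list median 0.19). In the series matrix values 17 were higher and 1 lower (median 0.64). Bmi1, a subunit of polycomb complex 1, rose by 1.74 ± 0.14 (adjusted p = 8.6e-08 by limma), from 5.89, 5.85 and 5.53 to 7.38, 7.55 and 7.55. Zinc genes split as well: the transporter gene Slc39a5 fell by 1.92 ± 0.11, Mt3 fell by 1.33 ± 0.21, and Mt1 stayed between 14.65 and 14.75 on all 6 arrays. Mt1 lies near the top of the scale, set to 14.87 on every array, where a difference between groups can hardly show.

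Levels at day 30 exceeded both reference cell types for Hspa1a (11.29 against 5.46 in acinar and 8.93 in beta cells), Pax4 (8.35 against 4.64 and 4.52), Egr2 (9.52 against 6.14 and 5.06) and Gip (13.97 against 5.44 and 5.25), which were picked after their values had been seen. Each 7-month array deviated from its group as the day 60 array of the same number did, with correlations of 0.87, 0.85 and 0.79 over the genes tested, while day 10 and day 30 arrays showed no such link (-0.021 to 0.031).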
